A study of Mus musculus with 20 samples.

Results

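The replication-dependent histone genes were taken as the protein-coding genes of the GENCODE annotation on mm10 (release M21, the assembly GRCm38) whose symbols start with Hist1h, Hist2h, Hist3h or Hist4h. The rule gave 67 genes of 21938 protein-coding genes. They code for the linker histone H1 (6 genes) and the core histones H2A (18), H2B (18), H3 (12) and H4 (13). The Hist1 cluster on chromosome 13 held 54 of them. Gaps of over 100 kb divided it into 4 groups, called here A (18 genes, chr13:21715763-21837530), B (5 genes, chr13:22035164-22043676), C (29 genes, chr13:23531050-23764406) and D (2 genes, chr13:23933773-23934851). Hist2 held 10 genes (chr3:96219865-96270132), Hist3 held 2 (chr11:58948920-58956830) and Hist4 held 1 (chr6:136801553-136804415). The median gene length was 539 bp, and 62 of the 67 genes had a single exon block.

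ChIP-Seq of H3K27ac, H3K4me1 and H3K4me3 was made in Lin- bone marrow cells, the cells left after depletion of mature blood lineages. The 4 genotypes were WT (Ep300 fl/fl), Ep300Δ/Δ (Mx1-Cre Ep300 fl/fl), Tet2-/- (Ep300 fl/fl Tet2-/-) and Ep300Δ/ΔTet2-/- (Mx1-Cre Ep300 fl/fl Tet2-/-), which the sample titles call WT, P300KO, TET2KO and P300KO_TET2KO. All groups carried the floxed Ep300 allele on the C57BL/6 background and, per the methods, mice received 3 doses of poly(I:C) from 6 to 8 weeks of age. Mx1-Cre is driven by interferon, so that Ep300, the gene of the acetyltransferase p300, is deleted in interferon-responding cells and not in blood cells alone. Tet2, the gene of a 5-methylcytosine dioxygenase, was absent from the germ line onward. With 1 library for every genotype and mark the variation among animals is unknown, so that genotypes were compared by their values alone and without a test. Of the 20 samples, the 8 for H3 and H3K27me3 had no peak list among the files used and were not analysed here.

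Replication-dependent histone genes are transcribed mainly in S phase, when new DNA must be packed into nucleosomes. Their mRNAs end in a conserved stem-loop rather than a poly(A) tail, and NPAT, a substrate of cyclin E and CDK2, gathers their transcription in histone locus bodies. Many lie head to head as H2A and H2B pairs that share a promoter, and their promoters are known for CCAAT and TATA elements, for the octamer of OCT1 in H2B genes and for the H1 box in H1 genes. H3K27ac, which p300 and its relative CBP write, lies at active promoters and enhancers. H3K4me3 lies mainly at promoters, and H3K4me1 lies at enhancers and on the flanks of active starts.

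The promoters of 7 members that the results turn on are given as in RefSeq on GRCm38.p6, from 250 bp before to 50 bp after the start, 5′ to 3′ on the gene's strand. Capitals mark 4 motifs searched as exact words on both strands: the CCAAT word, TATAAA as the TATA element, ATTTGCAT as the octamer and AAACACA as the H1 box. Where a word lies on the other strand, its reverse complement is in capitals. *Hist1h2ac* (H2A, chr13:23683910-23684209, minus strand) shares its promoter with *Hist1h2bc* and was among the members with the highest H3K27ac in WT. *Hist1h1b* (H1, chr13:21780576-21780875, minus strand) stands for the H1 genes expressed in dividing cells. *Hist1h1t* (H1, chr13:23695561-23695860, plus strand) and *Hist1h2ba* (H2B, chr13:23934107-23934406, minus strand) are known as testis genes. *Hist3h2ba* (H2B, chr11:58948661-58948960, plus strand) was the member whose H3K27ac call differed between genotypes. *Hist1h2bq* (H2B, chr13:21810150-21810449, minus strand) and *Hist1h4n* (H4, chr13:21832148-21832447, minus strand) lie in a duplicated stretch and had no H3K27ac peak.
Hist1h2ac: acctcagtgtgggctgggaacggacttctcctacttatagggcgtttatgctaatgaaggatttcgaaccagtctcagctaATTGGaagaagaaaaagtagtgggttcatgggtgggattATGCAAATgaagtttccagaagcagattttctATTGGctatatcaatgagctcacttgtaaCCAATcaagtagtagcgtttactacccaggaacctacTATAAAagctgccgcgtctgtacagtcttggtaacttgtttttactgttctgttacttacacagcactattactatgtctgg
Hist1h1b: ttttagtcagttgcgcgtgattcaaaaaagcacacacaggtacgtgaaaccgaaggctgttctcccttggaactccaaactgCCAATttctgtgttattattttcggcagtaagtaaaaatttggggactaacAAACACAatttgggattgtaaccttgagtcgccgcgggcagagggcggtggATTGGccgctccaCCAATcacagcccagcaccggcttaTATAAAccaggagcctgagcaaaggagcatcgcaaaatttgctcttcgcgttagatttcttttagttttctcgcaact
Hist1h1t: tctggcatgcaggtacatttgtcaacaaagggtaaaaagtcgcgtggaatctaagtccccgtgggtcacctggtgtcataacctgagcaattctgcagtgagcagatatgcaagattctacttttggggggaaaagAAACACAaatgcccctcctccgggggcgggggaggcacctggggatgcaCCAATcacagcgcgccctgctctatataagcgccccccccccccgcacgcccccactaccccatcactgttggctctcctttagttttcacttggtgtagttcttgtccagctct
Hist1h2ba: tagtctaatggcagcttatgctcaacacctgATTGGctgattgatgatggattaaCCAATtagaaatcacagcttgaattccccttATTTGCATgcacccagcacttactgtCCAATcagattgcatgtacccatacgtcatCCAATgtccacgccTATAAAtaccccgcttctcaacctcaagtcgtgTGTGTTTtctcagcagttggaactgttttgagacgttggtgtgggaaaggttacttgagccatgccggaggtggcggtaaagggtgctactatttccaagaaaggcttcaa
Hist3h2ba: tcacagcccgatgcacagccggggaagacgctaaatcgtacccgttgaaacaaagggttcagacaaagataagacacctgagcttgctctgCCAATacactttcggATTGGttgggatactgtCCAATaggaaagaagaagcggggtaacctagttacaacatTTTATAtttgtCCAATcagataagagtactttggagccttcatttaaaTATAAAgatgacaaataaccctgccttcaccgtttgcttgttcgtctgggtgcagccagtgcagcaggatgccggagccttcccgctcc
Hist1h2bq: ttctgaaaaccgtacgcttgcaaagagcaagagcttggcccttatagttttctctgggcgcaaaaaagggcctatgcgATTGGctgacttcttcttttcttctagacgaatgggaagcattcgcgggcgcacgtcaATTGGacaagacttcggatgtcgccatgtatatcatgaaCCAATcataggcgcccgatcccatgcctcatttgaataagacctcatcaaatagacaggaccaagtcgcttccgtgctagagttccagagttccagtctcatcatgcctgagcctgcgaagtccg
Hist1h4n: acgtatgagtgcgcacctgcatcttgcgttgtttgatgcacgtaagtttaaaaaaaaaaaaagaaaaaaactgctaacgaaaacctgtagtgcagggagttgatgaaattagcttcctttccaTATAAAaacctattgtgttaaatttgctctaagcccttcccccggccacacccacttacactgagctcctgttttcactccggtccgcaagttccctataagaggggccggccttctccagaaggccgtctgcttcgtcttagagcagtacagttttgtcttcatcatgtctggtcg

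The promoter of *Hist1h2ac* held 3 CCAAT words, 1 TATAAA and 1 octamer. A promoter in the RefSeq table matched 62 of the 67 members, and 61 of these lay within 100 bp of the GENCODE start. CCAAT stood in 53 of the 62 (85.5%), against 37.4% of all 32817 promoters in the table, and 44 held it 2 or more times, against 11.7% of all. The H4 genes were the exception: 3 of 12 held CCAAT, whereas every matched H1, H2A, H2B and H3 promoter did. TATAAA stood in 35 of 62 (56.5%, against 13.6% of all promoters). This count took the word on either strand and on both sides of the start. Not every word counted lay before the start on the gene's own strand, so the share with a placed TATA element is smaller. The octamer stood in 13 of 62 (21%, against 1.74%), and these were 7 of 18 H2A and 6 of 16 H2B promoters. Promoters of head-to-head H2A and H2B genes overlap, so that 1 word can count for both genes. The 62 promoters are thus not 62 separate sequences, which holds for CCAAT and TATAAA as well. The H1 box stood in 5 of 6 H1 promoters and in 9 of the 62 (14.5%, against 7.19%). The 8 members without an H3K27ac peak in any list carried these words as well, CCAAT in 7 of 8 and the octamer in 2 of 8. They held TATAAA in 3 of 8 and the H1 box in 3 of 8. Of the 53 matched members with H3K27ac in 4 lists, 84.9% held CCAAT, 20.8% the octamer, 58.5% TATAAA and 11.3% the H1 box. *Hist1h2bq* has its whole 300-base promoter in common with *Hist1h2br*, *Hist1h4n* shares a run of 285 bases with *Hist1h4m*, and *Hist1h2ao* shares 200 with *Hist1h2ap*. *Hist1h2ba* shares 220 bases with *Hist1h2aa* on the opposite strand, since they face each other.

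The lists held 18327 to 29659 peaks for H3K27ac, 90738 to 107392 for H3K4me1 and 25012 to 27807 for H3K4me3. The depth behind them is unknown from peak lists. The share of peaks with q above 0.05 ran from 0.137% to 7.17%, the highest in the Ep300Δ/Δ list of H3K27ac. H3K4me3 peaks lay at all 8 progenitor genes checked in every list, whereas *Cd3e*, *Cd8a* and *Ly6g*, genes of mature T cells and granulocytes, had no peak of any mark. *Cd79a* and *Itgam*, genes of B cells and myeloid cells, carried H3K4me3 in all 4 lists. Peak lists do not show whether Ep300 was deleted in a library, and a mark on fewer cells cannot be told apart from less of the mark per cell.

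A member was counted as marked when a peak overlapped its gene body extended by 1 kb on each side by at least 1 bp. H3K27ac marked 59 of 67 members in WT (88.1%, exact Clopper-Pearson 95% interval 77.8 to 94.7%), against 50.2% of all protein-coding genes. It marked 58 in Ep300Δ/Δ (86.6%, against 46.8% of all genes), 58 in Tet2-/- (86.6%, against 49.1%) and 59 in Ep300Δ/ΔTet2-/- (88.1%, against 45.5%). The intervals cover counting error only, and neighbouring members share peaks, so that the 67 windows formed 34 separate blocks. Other genes with 1 exon, 1399 in number, had H3K27ac in 14.7% to 17.0% of cases in the 4 lists. Their bodies were limited only to the length of the longest member, 37455 bp. Chemosensory receptor genes were not taken out of this set, so it is not matched to the members. H3K4me3 marked 61 members in WT (91.0%, against 63.6% of all genes), 59 in Ep300Δ/Δ (88.1%, against 64.6%), 61 in Tet2-/- (91.0%, against 64.1%) and 61 in Ep300Δ/ΔTet2-/- (91.0%, against 64.4%). H3K4me1 marked 49 members in WT (73.1%, against 65.3%), 49 in Ep300Δ/Δ (73.1%, against 65.4%), 41 in Tet2-/- (61.2%, against 65.0%) and 54 in Ep300Δ/ΔTet2-/- (80.6%, against 66.2%). For H3K4me1 the intervals of the members, from 48.5 to 72.9% in Tet2-/- to 69.1 to 89.2% in Ep300Δ/ΔTet2-/-, held the share of all genes in WT, Ep300Δ/Δ and Tet2-/-. Within 3 of the 4 genotypes the members were thus not distinguishable from all protein-coding genes in H3K4me1 at this number of genes. The other genes with 1 exon had H3K4me1 in 27.6% to 28.7% of cases in the 4 lists, below the members' intervals. The reading for this mark therefore depends on the set compared.

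**Figure D1:**
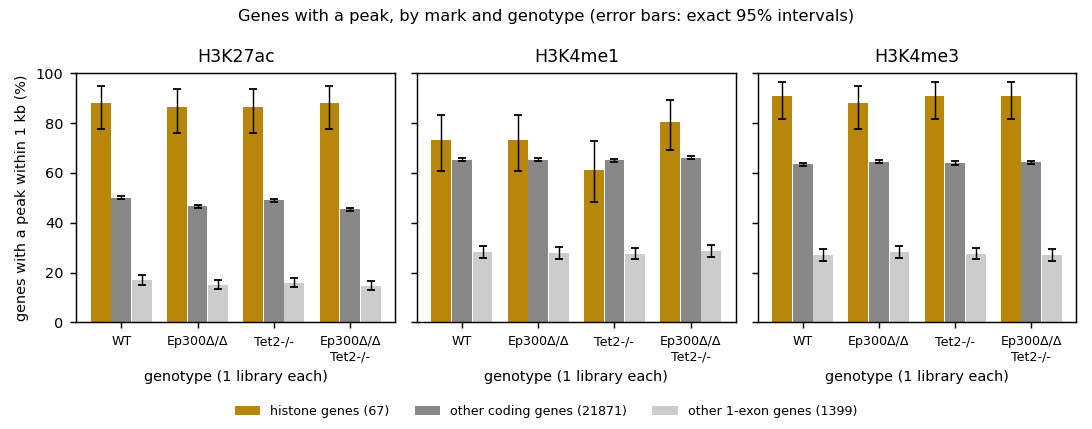
Share of genes with a peak within 1 kb of the gene body (y axis, percent) by genotype (x axis, 1 library each), in 1 panel per mark, for the 67 histone genes, the 21871 other coding genes and the 1399 other genes with 1 exon; error bars are exact 95% intervals. The histone genes stand at 86.6% to 88.1% for H3K27ac, above both other sets, and overlap the other coding genes for H3K4me1 in 3 of 4 genotypes. For H3K4me1 they stand above the other genes with 1 exon in all 4 genotypes.

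The same members carried H3K27ac in each genotype. A peak was present in all 4 lists at 58 of 67 members, in none at 8 and in some lists at 1. Among the other protein-coding genes, 41.6% had a peak in all 4 lists and 46.4% in none. H3K4me3 was present in all 4 lists at 59 members (88.1%) and in none at 6 (8.96%), against 61.6% and 33.3% of the other genes. H3K4me1 was present in all 4 lists at 35 members (52.2%), in 3 at 14, in 2 at 4, in 1 at 3 and in none at 11 (16.4%). Of the other genes, 57.7% had H3K4me1 in all 4 lists and 28.2% in none.

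By class, H3K27ac lay in all 4 lists at every H3 gene (12 of 12), at 12 of 13 H4 genes, which with H3 form the tetramer at the core of the nucleosome, at 15 of 18 H2A genes, 14 of 18 H2B genes and 5 of 6 H1 genes. H3K4me3 lay in all 4 lists at 12 of 12 H3, 12 of 13 H4, 15 of 18 H2A, 15 of 18 H2B and 5 of 6 H1 genes. H3K4me1 lay in all 4 at 7 of 12 H3, 6 of 13 H4, 10 of 18 H2A, 8 of 18 H2B and 4 of 6 H1 genes. By location, H3K27ac lay in all 4 lists at 13 of 18 genes of group A, 5 of 5 of group B, 28 of 29 of group C and 0 of 2 of group D, and at 10 of 10 genes of Hist2, 1 of 2 of Hist3 and the 1 gene of Hist4. Of the 8 genes without the mark in any list, 7 lay in groups A and D.

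**Figure D2:**
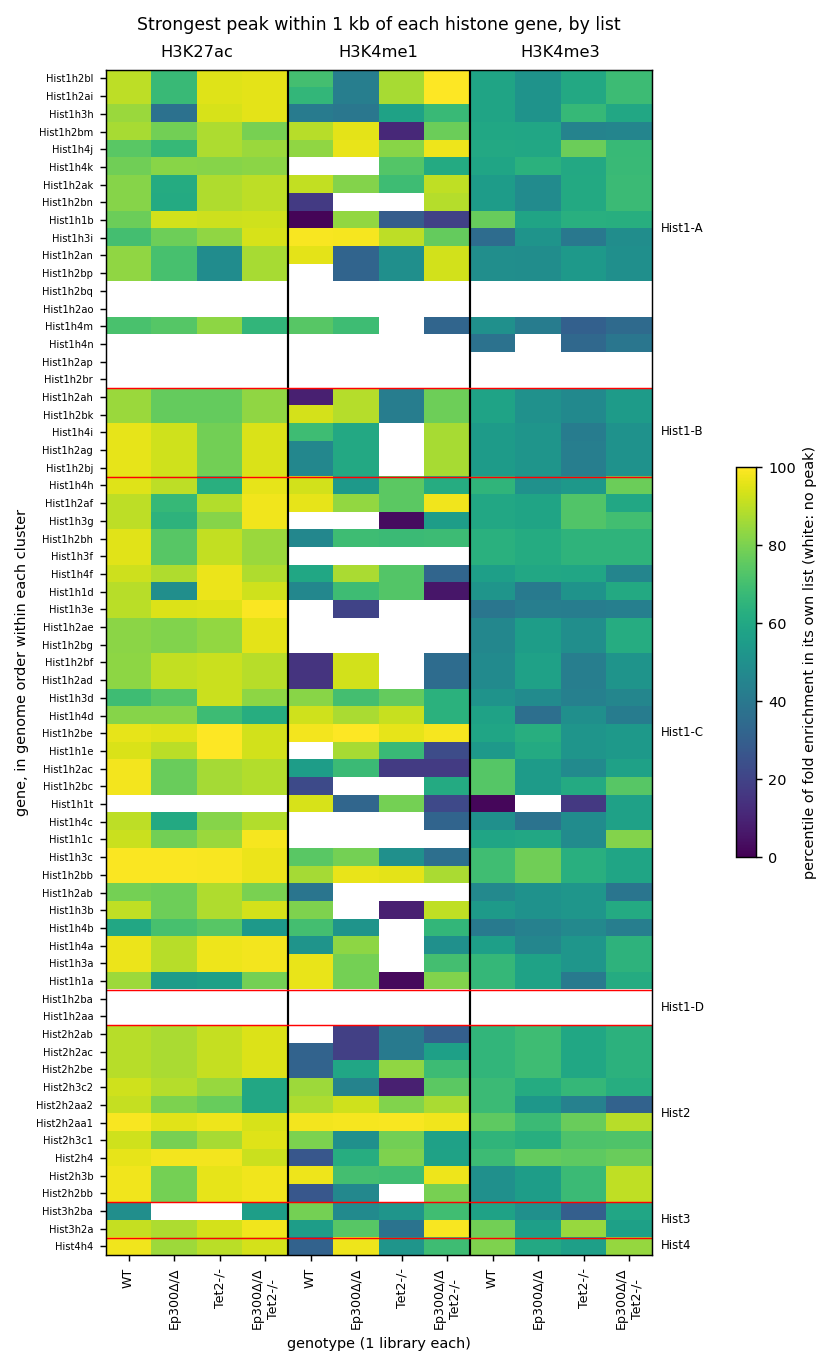
Percentile of the fold enrichment of the strongest peak within 1 kb of each of the 67 members (rows, in genome order within each cluster) among all peaks of its own list, for 3 marks in 4 genotypes (columns, 1 library each); white cells have no peak. H3K27ac fills the same 58 rows in all 4 lists, H3K4me3 fills 59, and H3K4me1 fills 35.

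The 8 members with no H3K27ac peak in any list were *Hist1h2bq*, *Hist1h2ao*, *Hist1h4n*, *Hist1h2ap* and *Hist1h2br* of group A, *Hist1h1t* of group C, and *Hist1h2ba* and *Hist1h2aa* of group D. *Hist1h2bq*, *Hist1h2ao*, *Hist1h2ap*, *Hist1h2br*, *Hist1h2ba* and *Hist1h2aa* had no peak in any of the 12 lists. *Hist1h2ba* and *Hist1h2aa* code for the testis H2B and H2A, and *Hist1h1t* codes for the testis linker histone. *Hist1h1t* had H3K4me1 in all 4 lists, at percentile 94.0 of the list in WT, 33.2 in Ep300Δ/Δ, 78.9 in Tet2-/- and 22.1 in Ep300Δ/ΔTet2-/-. Its H3K4me1 peaks, 740 to 864 bp wide, lay over the gene itself. Its H3K4me3 was at percentile 1.71 in WT, 16.7 in Tet2-/- and 57.0 in Ep300Δ/ΔTet2-/-, with no peak in Ep300Δ/Δ. The peak in Ep300Δ/ΔTet2-/- had its summit 2312 bp past the start of *Hist1h1t*, over the neighbouring H4 gene *Hist1h4c*, and reached the window of *Hist1h1t* only at its edge.

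The other unmarked members lie in a stretch of group A that exists in near-identical copies. The authors kept reads of high mapping quality, and such reads cannot be placed where the genome repeats itself. For each window, the share of its 75-base words that occur again in GRCm38 on either strand was therefore counted, 75 bp being the read length that the methods give. Over 80% of the words were repeated in 6 windows: 100% in *Hist1h2bq* and *Hist1h2br*, 97.1% in *Hist1h2ap*, 96.9% in *Hist1h2ao*, 90.9% in *Hist1h4m* and 83.5% in *Hist1h4n*. Of these 6, only *Hist1h4m* had H3K27ac, in all 4 lists. The 32 members with 11.3% to 60.8% of repeated words all had H3K27ac and H3K4me3 in all 4 lists. Of the 29 members with at most 10%, 25 had H3K27ac in all 4 lists, 26 had H3K4me3 in all 4, and the 3 without any H3K27ac were the testis genes. Leaving aside the testis genes and the 6 windows, 57 of 58 members had H3K27ac and 58 of 58 had H3K4me3 in all 4 lists. For *Hist1h2bq*, *Hist1h2br*, *Hist1h2ao* and *Hist1h2ap* an absent peak therefore cannot be told apart from reads that could not be placed. The peaks at *Hist1h4m* and *Hist1h4n* all held single-copy words: 57.1% to 65.6% of the words within them were repeated. In *Hist1h4m* single-copy words lay from 422 to 562 bp and from 590 to 733 bp past the start, beyond the end of the 402-bp gene, as well as around the start itself.

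**Figure D3:**
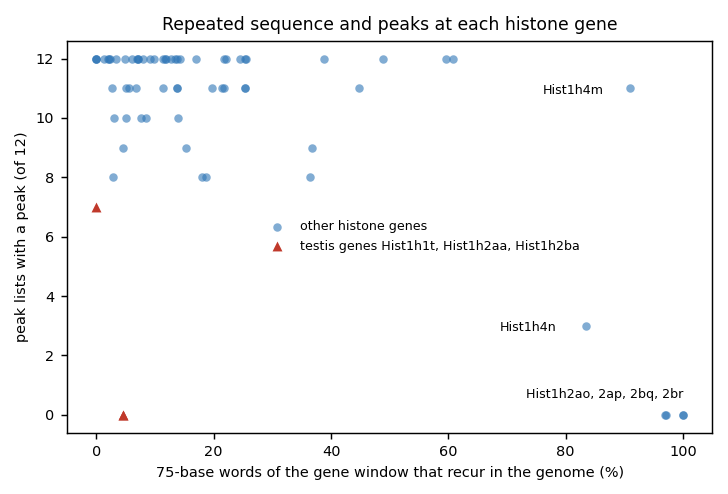
Share of the 75-base words of each member's window that recur in the genome (x axis, percent) against the number of the 12 peak lists with a peak at the member (y axis), 1 point per gene, with the testis genes as triangles. *Hist1h2ao*, *Hist1h2ap*, *Hist1h2bq* and *Hist1h2br*, at 96.9% or more, have a peak in 0 lists, and the members with at most 60.8% that are not testis genes have a peak in 8 or more.

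Strength was read as the percentile of a peak's fold enrichment over the H3 library among all peaks of the same list, and peaks within 1 kb of a start were used. In WT the median H3K27ac percentile of 59 members was 89.9, against 80.3 for other genes with such a peak, and 88.1% of the members stood at or above percentile 75, against 58.4%. The median was 79.3 in Ep300Δ/Δ (58 members, other genes 75.5), 88.0 in Tet2-/- (58 members, other genes 76.9) and 93.3 in Ep300Δ/ΔTet2-/- (58 members, other genes 71.0). H3K4me3 stood the other way round. The members' median was 58.0 in WT, 55.7 in Ep300Δ/Δ, 53.0 in Tet2-/- and 60.2 in Ep300Δ/ΔTet2-/-, whereas that of other genes lay between 74.7 and 76.3. In WT 4 of 60 members (6.67%) reached percentile 75 of the H3K4me3 list, against 52.4% of other genes. Among the members with at most 10% of repeated words, the medians in WT were 89.5 for H3K27ac (26 members) and 60.1 for H3K4me3 (26 members). H3K4me1 percentiles were spread widely, with medians of 65.1 to 68.0 in WT, Ep300Δ/Δ and Tet2-/- and 69.4 in Ep300Δ/ΔTet2-/-, against 66.0, 67.9, 58.7 and 62.8 for other genes in WT, Ep300Δ/Δ, Tet2-/- and Ep300Δ/ΔTet2-/-. Ranked by −log10 q instead of fold, the H3K4me1 medians of the members were below those of other genes in WT (57.8 against 68.6), Ep300Δ/Δ (58.4 against 68.7) and Tet2-/- (55.3 against 65.2) and above in Ep300Δ/ΔTet2-/- (70.7 against 67.1), so that no order of members and other genes was read for this mark. For H3K27ac and H3K4me3 the direction was the same by either ranking in all 4 lists.

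The highest H3K27ac in WT lay at *Hist1h2bb* (H2B) and *Hist1h3c* (H3), which share 1 peak. Its percentile, here of the strongest peak in the window, was 99.5 in WT, 99.4 in Ep300Δ/Δ, 99.1 in Tet2-/- and 97 in Ep300Δ/ΔTet2-/-. It stayed among the strongest peaks of each list. *Hist2h2aa1* (H2A) stood at 99.2, 95.5, 97.5 and 94.1 in the same order. The pair *Hist1h2ac* and *Hist1h2bc* (H2A and H2B) stood at 98.3, 77.1, 86.3 and 88.3. *Hist4h4*, the lone H4 gene of Hist4, stood at 97.9, 85.2, 89.7 and 93.4 for H3K27ac. In WT it was also the highest member for H3K4me3, at 80.8, with 60.4 in Ep300Δ/Δ, 56.3 in Tet2-/- and 84.4 in Ep300Δ/ΔTet2-/-. *Hist3h2a* (H2A) was next in WT for H3K4me3, at 78.8, 56.3, 84.4 and 57.0, and *Hist1h1b* (H1) followed at 76.9, 58.5, 63.2 and 62.7. *Hist1h3i* (H3) was the highest member for H3K4me1 in WT, at 99.0, 98.7, 90.2 and 76.4, and *Hist1h2be* (H2B) stood at 98.4, 99.9, 96.1 and 98.6. The annotated body of *Hist1h2be* is 37455 bp long and takes in other genes, so that its window has 12 H3K4me1 peaks in WT, the strongest of them 11616 bp from its start. *Hist2h3b* (H3) and *Hist1h1a* (H1) were among the 5 members with the strongest H3K4me1 in WT as well, and *Hist1h1a* shares its WT peak and so its place with the H3 gene *Hist1h3a*. *Hist2h3b* stood at 97.4, 69.9, 69.5 and 97.6. *Hist1h1a* stood at 96.7 in WT, 79.2 in Ep300Δ/Δ, 2.70 in Tet2-/- and 81.1 in Ep300Δ/ΔTet2-/-. Because each value comes from 1 library, the order of members with near percentiles was not resolved, and since members were named for a high WT fold, a lower percentile elsewhere is not read as a change.

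Within the clusters the peaks lay at the histone genes. In the spans of groups A to C and Hist2, the windows of the members made up 43.8% of the length. Of the 98 H3K27ac peaks in these spans in WT, 93 (94.9%) overlapped a member window. The share was 94.9% in Ep300Δ/Δ, 97.7% in Tet2-/- and 98.6% in Ep300Δ/ΔTet2-/-, and for H3K4me3 it was 95.5% to 96.6%. H3K4me1 was less bound to the genes, with 65 of 108 peaks at members in WT (60.2%), 79.3% in Ep300Δ/Δ, 71.1% in Tet2-/- and 75.5% in Ep300Δ/ΔTet2-/-. Between the histone genes lie 49 other protein-coding genes, 36 of which code for chemosensory receptors of the vomeronasal organ. None of the 36 had a peak of any mark in any list. Of the other 13, among them the zinc finger gene *Zfp184* and the iron regulator *Hfe*, 7 had H3K27ac in WT, 5 in Ep300Δ/Δ, 5 in Tet2-/- and 4 in Ep300Δ/ΔTet2-/-.

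The position of the peaks relative to the start was read next, beside other genes with an H3K4me3 peak in WT. The base 400 bp past the start was covered by H3K27ac in 76.1% of the 67 members in WT, 73.1% in Ep300Δ/Δ, 74.6% in Tet2-/- and 76.1% in Ep300Δ/ΔTet2-/-, the highest coverage of each profile, which was read every 100 bp. In Tet2-/- and Ep300Δ/ΔTet2-/- the base 500 bp past the start had the same coverage. At the start itself H3K27ac covered 58.2% in WT, 40.3% in Ep300Δ/Δ, 68.7% in Tet2-/- and 67.2% in Ep300Δ/ΔTet2-/-, against 32.6%, 22%, 32.7% and 28.9% of the other genes. H3K4me3 covered 74.6% at the start in every genotype, beside 72.2% to 79.0% of the other genes, and at most 77.6% to 83.6%. The other genes were chosen for this mark in WT and the members were not, so these shares are not like for like. H3K4me1 covered the start in 2 to 7 members of 67 and in 13.6% to 16.3% of the other genes. Its highest coverage was 25.4% in WT, 35.8% in Ep300Δ/Δ and 43.3% in Ep300Δ/ΔTet2-/-, each 400 bp past the start, and 19.4% in Tet2-/-, both 700 and 600 bp before it. The summits of H3K27ac peaks lay past the nearest member start in 74.0% to 77.3% of peaks, with medians from 316 to 395 bp. For H3K4me3 82.1% to 86.8% of summits lay past the start. Summits of H3K4me1 had a median distance from the nearest start of 765 to 1000 bp, and 1 or 2 peaks in each list had a summit within 100 bp. With a median gene length of 539 bp, positions 400 bp past a start lie near the end of the gene.

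**Figure D4:**
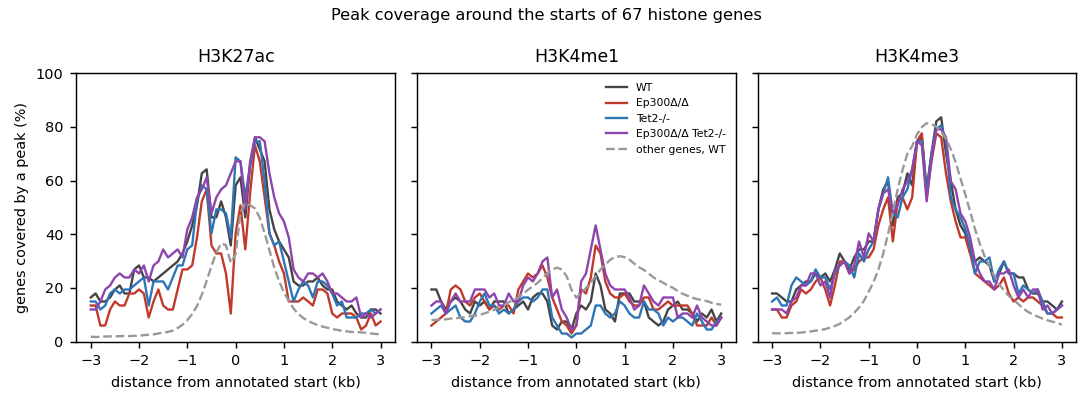
Share of the 67 members covered by a peak (y axis, percent) against distance from the annotated start (x axis, kb, positive in the direction of transcription), with 1 panel per mark, 1 solid line per genotype and a dashed line for other genes with a WT H3K4me3 peak in WT. H3K27ac is highest 400 bp past the start in all 4 genotypes, equally so at 500 bp in Tet2-/- and Ep300Δ/ΔTet2-/-, and H3K4me1 covers few starts.

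Presence was then compared between genotypes: a member had lost a peak when the first list had one and the second did not, and gained it in the reverse case. For p300 loss in WT, 1 of 59 members lost H3K27ac (1.69%, exact 95% interval 0.0429 to 9.09%), against 9.5% of all genes with a WT peak, and 0 of 8 gained it, against 2.74%. For p300 loss in Tet2-/-, 0 of 58 lost it (interval up to 6.16%), against 10.9%, and 1 of 9 gained it, against 3.53%. For Tet2 loss in WT, 1 of 59 lost it, against 6.61%, and 0 of 8 gained it, against 4.43%. For Tet2 loss in Ep300Δ/Δ, 0 of 58 lost it, against 8.23%, and 1 of 9 gained it, against 4.87%. The lists are shared between these comparisons. The gene behind every change was *Hist3h2ba*, an H2B gene of Hist3, whose H3K27ac peak was 246 bp wide at percentile 49.5 in WT and 265 bp wide at 56.1 in Ep300Δ/ΔTet2-/-. The WT peak had its summit 586 bp before the start and the other 63 bp past it, so that they were not at the same place. Opposite changes with p300 loss on the WT and Tet2-/- backgrounds were seen at 0.688% of all genes. *Hist3h2ba* had H3K4me3 in all 4 lists, at percentiles 57.7, 50.3, 30.2 and 59.3 in WT, Ep300Δ/Δ, Tet2-/- and Ep300Δ/ΔTet2-/-.

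On the level of regions, where overlapping peaks of the compared lists are merged as the study did, 14 of 97 H3K27ac regions at members in WT had no counterpart in Ep300Δ/Δ (14.4%, interval 8.12 to 23.0%), against 39.7% of all regions. In the same comparison 2 of 85 were gained (2.35%), against 12.8%. From Tet2-/- to Ep300Δ/ΔTet2-/-, 4 of 70 were lost (5.71%, interval 1.58 to 14.0%), against 37.8%, and 6 of 72 were gained (8.33%), against 15%. H3K27ac peaks at members stood above the middle of their lists, with median percentiles of 66.9 to 82.9, and the part of this in the lower shares was not tested.

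H3K4me3 hardly changed in presence. From WT to Ep300Δ/Δ 2 of 61 members lost it, against 1.69% of all genes, and 0 of 6 gained it, against 5.63%. These 2 were *Hist1h4n* and *Hist1h1t*. From Tet2-/- to Ep300Δ/ΔTet2-/- 0 of 61 lost it, against 1.62%, and 0 of 6 gained it, against 3.84%. From WT to Tet2-/- the counts were 0 of 61, against 1.6%, and 0 of 6, against 4.03%. From Ep300Δ/Δ to Ep300Δ/ΔTet2-/- 0 of 59 lost it, against 2.29%, and *Hist1h4n* and *Hist1h1t*, 2 of 8, gained it, against 3.68%. The peaks of *Hist1h4n* stood at percentiles 37.6 in WT, 33.8 in Tet2-/- and 39.3 in Ep300Δ/ΔTet2-/-, in the lower part of their lists.

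More members differed in H3K4me1 than in the other marks. From WT to Tet2-/- 13 of 49 members lost H3K4me1 (26.5%, interval 15 to 41.1%), against 5.96%, and 5 of 18 gained it, against 10.4%. From Tet2-/- to Ep300Δ/ΔTet2-/- 0 of 41 lost it, against 5.1%, and 13 of 26 gained it (interval 29.9 to 70.1%), against 12.9%. Both counts of 13 rest on the 1 Tet2-/- library, and members of both were the H4 genes *Hist1h4a*, *Hist1h4b*, *Hist1h4i* and *Hist1h4m*, the H2B genes *Hist1h2bc*, *Hist1h2bf*, *Hist1h2bj*, *Hist1h2bn* and *Hist2h2bb*, the H2A genes *Hist1h2ad* and *Hist1h2ag*, and the H3 gene *Hist1h3a*. These genes were named after their values were seen. Counted over blocks of overlapping windows, 3 of 30 blocks lost the mark from WT to Tet2-/-, and among members with at most 10% of repeated words 3 of 21 did, which is 10.0% and 14.3%. In the latter subset the share of marked members was higher in Tet2-/- than in WT, so that there was no net loss there. Among peaks with −log10 q of at least 5, 9 of 33 members lost the mark from WT to Tet2-/- and 11 of 34 gained it, so that there was no net loss at that threshold. On the level of regions, 24 of 69 H3K4me1 regions at members were lost from WT to Tet2-/- (34.8%, interval 23.7 to 47.2%), against 28.6% of all regions, and 15 of 60 were gained (25.0%), against 26.8%. From Tet2-/- to Ep300Δ/ΔTet2-/-, 11 of 60 were lost (18.3%), against 31.1%, and 35 of 84 were gained (41.7%, interval 31.0 to 52.9%), against 23.4%. From WT to Ep300Δ/Δ 4 of 49 members lost the mark, against 5.84%, and 4 of 18 gained it, against 11.3%. From Ep300Δ/Δ to Ep300Δ/ΔTet2-/- 1 of 49 lost it, against 5.06%, and 6 of 18 gained it, against 12%. Loss of H3K4me1 on one background and gain on the other was seen at 2 members, *Hist1h2bn* and *Hist1h2bc*, and at 1.08% of all genes. The interval of the 6 of 18 began at 13.3%, and the intervals of the other 3 shares for these comparisons held the share of all genes.

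While the same members stayed marked, the H3K27ac peaks at their starts differed in width. The median width of the widest start peak was 873 bp in WT, 591 bp in Ep300Δ/Δ, 855 bp in Tet2-/- and 1180 bp in Ep300Δ/ΔTet2-/-, whereas other genes had 792, 607, 745 and 717 bp. From WT to Ep300Δ/Δ the peak was narrower at 56 of 58 members, against 83.1% of all genes with both peaks, with a median ratio of 0.817 at members and 0.815 at other genes. From Tet2-/- to Ep300Δ/ΔTet2-/- it was wider at 46 of 57 members (80.7%), against 43.4% of all genes, with median ratios of 1.26 and 0.963. The direction differed between the backgrounds at the members. Group A had medians of 754, 473, 1101 and 1198 bp in WT, Ep300Δ/Δ, Tet2-/- and Ep300Δ/ΔTet2-/-, group B 875, 852, 606 and 993 bp, group C 976, 629, 824 and 1264 bp, and Hist2 906, 618, 785 and 1460 bp. In each of these groups the median was lower in Ep300Δ/Δ than in WT and higher in Ep300Δ/ΔTet2-/- than in Tet2-/-. Over blocks, 30 of 31 were narrower and 22 of 31 wider. Among members with at most 10% of repeated words, 23 of 25 were narrower and 20 of 24 wider. The whole H3K27ac lists also differed in width, with medians of 497, 402, 490 and 535 bp in the same order. Their part in the members' widths was not tested. H3K4me3 start peaks were also narrower from WT to Ep300Δ/Δ, at 45 of 58 members, against 61.4% of all genes, with a median ratio of 0.932 at members and 0.976 at other genes. They were wider from Tet2-/- to Ep300Δ/ΔTet2-/- at 32 of 59 members, against 44.8%, with ratios of 1.01 and 0.991.

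**Figure D5:**
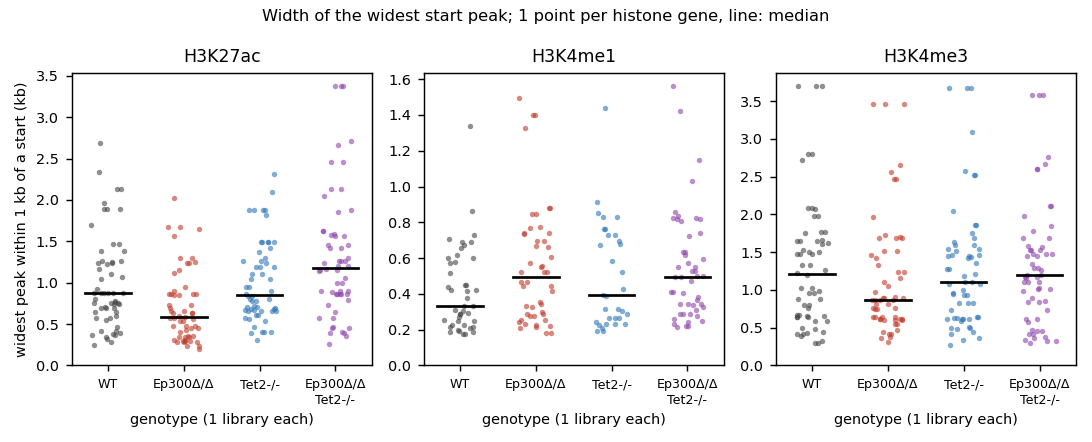
Width of the widest peak within 1 kb of a start (y axis, kb, from 0, with a scale of its own in each panel) for each member with a peak, by genotype (x axis, 1 library each) and mark; black lines are medians. For H3K27ac the medians are 873 bp in WT, 591 bp in Ep300Δ/Δ, 855 bp in Tet2-/- and 1180 bp in Ep300Δ/ΔTet2-/-.

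Percentile and covered length were compared as well. The lists compared differ in length, with 29659 H3K27ac peaks in WT and 22727 in Ep300Δ/Δ, and 24539 in Tet2-/- and 18327 in Ep300Δ/ΔTet2-/-. The percentile of a peak depends on how many weaker peaks its list holds, so that a difference between lists is read here only beside that of other genes in the same lists. From WT to Ep300Δ/Δ the H3K27ac percentile was lower at 46 of 58 members, against 65.6% of all genes with both peaks, with a median difference of -6.23 percentile points at members and -3.41 at other genes. From Tet2-/- to Ep300Δ/ΔTet2-/- it was higher at 38 of 57 members, against 35% of all genes, with a median difference of 1.95 at members and -4.42 at other genes. Group B moved together in every comparison, lower at 5 of 5 members from WT to Ep300Δ/Δ and higher at 5 of 5 from Tet2-/- to Ep300Δ/ΔTet2-/-. Its members share their strongest peaks (3 of them 1 peak and the other 2 another), so that they are not independent. H3K27ac covered 62.0 kb of the 199.4 kb of member windows in WT, 47.1 kb in Ep300Δ/Δ, 59.7 kb in Tet2-/- and 69.4 kb in Ep300Δ/ΔTet2-/-. The whole lists covered 18.7, 11.5, 15 and 11.9 Mb, so that the double mutant had the highest coverage of member windows while its whole list covered 11.9 Mb. H3K4me3 covered 73.1, 63.8, 71.5 and 70.8 kb in the same order, and H3K4me1 26.7, 32.8, 23.7 and 36.0 kb.

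Head-to-head genes were compared for H3K27ac in WT, where their overlapping windows make a shared peak likely by construction. Of 13 pairs whose starts lay 176 to 660 bp apart, 12 joined an H2A and an H2B gene and 1 an H2B and an H3 gene. Both genes of a pair had the same strongest H3K27ac peak in WT or, in *Hist1h2bq* with *Hist1h2ao*, *Hist1h2ap* with *Hist1h2br*, and *Hist1h2ba* with *Hist1h2aa*, no peak. The starts of *Hist1h2ac* and *Hist1h2bc* lay 251 bp apart, with the promoter printed above between them. Their strongest WT peak, 412 bp wide, had its summit 418 bp past the start of *Hist1h2bc*.

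Genes that act in the transcription and processing of histone mRNA formed a list of 17, among them *Npat*, *Hinfp*, which binds H4 promoters, *Slbp*, the stem-loop binding protein, *Lsm10* and *Lsm11* of the U7 particle, which directs 3′ processing, and *Cdk2*. H3K4me3 marked 17 of 17 in all 4 lists, H3K27ac 15 of 17 (88.2%) and H3K4me1 14 of 17 (82.4%), beside 61.6%, 41.6% and 57.7% of the protein-coding genes that are not members. *Lsm11* had H3K27ac in WT alone, at percentile 28.7, and *Sympk*, a scaffold of 3′ processing, had none in Ep300Δ/ΔTet2-/-. *Slbp* stood at 99.2, 99.5, 99.6 and 99.6 for H3K27ac in WT, Ep300Δ/Δ, Tet2-/- and Ep300Δ/ΔTet2-/-, and *Npat* at 95, 90.1, 96.4 and 60.0. *Npat* had no H3K4me1 peak in any list. The median H3K4me3 percentile of the 17 genes was 90.5 in WT, above the 58.0 of the histone genes. For H3K27ac their medians at starts were 92.8, 84.7, 86.3 and 81.6 in WT, Ep300Δ/Δ, Tet2-/- and Ep300Δ/ΔTet2-/-, beside 89.9, 79.3, 88.0 and 93.3 for the histone genes, so that a high H3K27ac percentile was not particular to the histone genes. Of 11 histone variants made outside S phase as well, H3K4me3 marked 11 in all 4 lists and H3K27ac 8, with none at *H1f0*, *H1fx* and *H2afy2*. The H3.3 gene *H3f3a* stood at 98.9, 95.2, 86.6 and 97.8 for H3K27ac, and *H2afz*, the gene of H2A.Z, at 89.5, 92.7, 82.4 and 83.4.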

How the data were processed

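Peak lists of H3K27ac, H3K4me1 and H3K4me3 were used, 1 library for each of 4 genotypes, from Lin- bone marrow cells. Antibody (1 μg) was added to 5 μg of chromatin, to which *Drosophila* chromatin (10 ng) had been added as a reference, and the lists are not stated to be scaled by it. The labels call the reads single-end, whereas the methods give paired-end reads of 75 bp. The authors used Cutadapt 1.15 for trimming, BWA 0.7.13 for alignment to mm10 and Picard for duplicates, left out reads of low mapping quality or inside the blacklist, and called peaks with MACS2 2.1.1.20160309 against the H3 library, keeping those found in pseudo-replicates at a stated q of 0.05. The deposited values of a peak are its coordinates, the place of its summit, a ratio (fold enrichment over the H3 library), −log10 p-value and −log10 q-value, and a score, which was not used. Fold enrichment entered only as a percentile of its own list. These files do not give library depth, and an absent peak means only that none passed the threshold there.

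Genes came from GENCODE M21 (Ensembl release 96), promoters from RefSeq on GRCm38.p6, and chromosome sequences from GRCm38, which is mm10. A peak belonged to a gene when it overlapped the gene body extended by 1 kb on each side by at least 1 bp. Start peaks lay within 1 kb of a transcript start. The 95% intervals of shares are Clopper-Pearson intervals for counting error alone. Repeated sequence was counted as 75-base words found again on either strand. Alternatives were other windows, stricter q values, lists of equal size, ranking by −log10 q, blocks of overlapping windows, and leaving out members with repeated sequence.

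The members and lists were chosen with earlier results of these data known. Named were the 5 members with the highest WT fold per mark, members whose H3K27ac or H3K4me3 call differed between genotypes, members without H3K27ac or without any peak, testis genes, the genes of Hist3 and Hist4, 1 divergent pair, and the listed factors and variants. Members named for a differing H3K4me1 call were added after their values were seen. In a check on simulated lists, 0 of 399 planted calls were missed, and 804 calls on the deposited lists were compared with bedtools 2.31.1, of which 0 differed. The work used Python 3.11.15, numpy 2.4.6, pandas 2.3.3, scipy 1.17.1 and matplotlib 3.10.9. Identity between the proteins was not computed.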

Additional observations from a re-analysis of the deposited data

Results flagged for a closer look

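The loss of p300 went with opposite changes at some members on the WT and the Tet2-/- backgrounds. For H3K27ac this was 1 member, *Hist3h2ba*, which had a peak in WT and Ep300Δ/ΔTet2-/- and none in Ep300Δ/Δ and Tet2-/-, while 151 of all 21938 protein-coding genes (0.688%) showed such opposite changes. For H3K4me1 it was 2 members, *Hist1h2bn* and *Hist1h2bc*, which lost the peak from WT to Ep300Δ/Δ and gained it from Tet2-/- to Ep300Δ/ΔTet2-/-, while 236 of all genes (1.08%) showed opposite changes. The widest H3K27ac start peak was narrower in Ep300Δ/Δ than in WT at 56 of 58 members, against 83.1% of all genes and with a median ratio near that of other genes (0.817 and 0.815). It was wider in Ep300Δ/ΔTet2-/- than in Tet2-/- at 46 of 57, against 43.4% of all genes. With 1 library per genotype these differences between backgrounds were not tested.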

How the results depend on the processing

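No paired analysis was possible because each genotype and mark had 1 library. Of the values recomputed under alternatives, 421 kept within their range and 47 moved. Ranked by −log10 q, the members' median H3K4me1 start percentile went from above to below that of other genes in WT (57.8 against 68.6) and Tet2-/- (55.3 against 65.2). H3K4me1 presence moved most often. In WT, Ep300Δ/Δ, Tet2-/- and Ep300Δ/ΔTet2-/- it was 88.2%, 85.3%, 82.4% and 91.2% over blocks of overlapping windows, 91.0%, 89.6%, 76.1% and 89.6% with 3 kb on each side, and 38.8%, 44.8%, 26.9% and 55.2% without extension. With −log10 q of at least 5 it was 49.3% in WT, 46.3% in Ep300Δ/Δ, 52.2% in Tet2-/- and 64.2% in Ep300Δ/ΔTet2-/-. Without members over 10% repeated it was 72.4%, 75.9%, 75.9% and 89.7% in the 4 genotypes, and 1 kb around starts it was 47.8% in Tet2-/-. Tet2-/- was thus the lowest with each of these windows, but not with the stricter q or without repeated members. H3K4me3 presence was 97.1% over blocks and 97% with 3 kb in WT, Tet2-/- and Ep300Δ/ΔTet2-/-. Without extension 0.0% of members lost H3K27ac from WT to Ep300Δ/Δ. H3K4me1 covered 15.7 kb in Ep300Δ/Δ with −log10 q of at least 5. Ranked by −log10 q, the median start percentile was 83.8 for H3K27ac in Tet2-/-, 58.4 for H3K4me1 in Ep300Δ/Δ, and for H3K4me3 53.4 in WT, 52.0 in Ep300Δ/Δ and 54.2 in Ep300Δ/ΔTet2-/-. Without members over 10% repeated, an alternative chosen for this value after seeing the data, it was 58.5 for H3K4me3 in Ep300Δ/Δ. Where not given by the construction of the window or filter, the cause was not tested.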

Other observations

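The stem-loop that ends replication-dependent histone mRNAs was searched as a perfect consensus word within 100 bp of annotated transcript ends, on the sense strand. It was found at 32 of 67 members (47.8%) and at 0 of 21871 other protein-coding genes. By class it was found at 12 of 18 H2A, 8 of 18 H2B, 5 of 12 H3, 5 of 13 H4 and 2 of 6 H1 genes. A missing match says only that the word is not in this window.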
